A study of Mus musculus with 6 samples.

Results

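The levels of 10 genes were followed whose products are chromatin remodellers or cofactors that have been reported to act together with the transcription factor Sox10 in Schwann cells, the glia of peripheral nerves. They were Chd3, Chd4, Chd7, Chd8, Smarca4, Hdac1, Hdac2, Med12, Yy1 and Eed. The rule that names them uses no measured value, although the set was drawn up with earlier results of these data known. All 10 were found by symbol among the 54109 Ensembl gene IDs of the count tables. Messenger RNA had been sequenced from 6 cultures of Msc80, a mouse Schwann cell line grown in medium with serum. In 3 control cultures Sox10 was of wild type, and in 3 Sox10ko cultures it had been inactivated by CRISPR/Cas9 editing. The labels name the cultures biological replicates and call the edited cells a clone. They do not say whether the 3 Sox10ko cultures came from 1 clone or several, so that loss of Sox10 and a difference between clones cannot be told apart. P-values measure the spread between these cultures.

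Sox10 binds DNA and acts together with other proteins at its target genes. It works with enzymes that slide or evict nucleosomes using ATP, such as the BAF complex built on Smarca4 (Brg1), with histone deacetylases, and with the Mediator complex, which links enhancer-bound factors to RNA polymerase II. In Schwann cells these partners are known for their part in the step from immature to myelinating cell: Hdac1 and Hdac2, Brg1 and Med12 have each been linked to Sox10 function, Chd4 acts in the NuRD complex with the Nab corepressors of Egr2, Yy1 regulates Egr2, and Eed is needed for the H3K27 methylation that holds injury genes silent.

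The libraries held between 32328618 and 41834431 counted reads, so that 1 read was worth 0.0239 to 0.0309 CPM, the count scaled to 1e+06 reads per library. Libraries are listed below in the order of their replicate numbers. Sox10 itself had 606, 627 and 617 CPM in control against 82.3, 67.5 and 116 CPM in Sox10ko, a log2 fold change of -2.80 ± 0.20 (edgeR adjusted p = 0.000186). Here and below CPM are scaled between libraries by the TMM method, fold changes are Sox10ko over control with their SE, and a gene is called when its adjusted p is under 0.05. All 10 Schwann cell markers, a list that includes Sox10 itself, were lower in Sox10ko. Their summed level was 4891 to 5500 CPM in control, where Ngfr alone averaged 2965 CPM, and 167 to 204 CPM in Sox10ko. Of 7 fibroblast markers 4 were tested and 3 were higher (summed 297 to 490 CPM in control and 947 to 2115 CPM in Sox10ko). Col1a1 averaged 177.5 CPM in control and 1086 CPM in Sox10ko, Pdgfrb 232 and 462 CPM, and Col1a2 3.04 and 24.55 CPM. Col1a1 and Pdgfrb made up most of the sums. Pdgfra, at 0.734 and 0.848 CPM, was not called (edgeR adjusted p = 0.781). Thy1, Lum and Dcn averaged at most 0.186 CPM in either group. Of 5 smooth muscle markers 4 were higher (summed 0.759 to 1.02 CPM in control and 118 to 670 CPM in Sox10ko). Acta2 alone had 107, 644 and 321 CPM in Sox10ko, and Des had 9.08, 23.3 and 24.15 CPM. Tagln, which was not called, Myh11 and Cnn1 averaged 0.602, 1.015 and 0.753 CPM there. Acta2, Myh11 and Cnn1 had at most 11 reads in any control library. They entered the test through the Sox10ko libraries, where they are high, so that their calls alone are not evidence of a rise. Of 6 leukocyte and endothelial markers 3 were tested, with 1 higher and 1 lower (summed 3.88 to 5.07 CPM in control and 6.27 to 10.9 CPM in Sox10ko). The higher one, Cd68, had 2.25, 3.07 and 1.78 CPM in control and 10.7, 5.26 and 8.72 CPM in Sox10ko (edgeR adjusted p = 0.0065). It made up most of the summed level in Sox10ko. The lower one, Cdh5, had 57, 60 and 75 reads in control and 0, 11 and 0 in Sox10ko. It entered the test through the control libraries, where it is high, so that its call alone is not evidence of a fall. The pan-leukocyte gene Ptprc averaged at most 0.241 CPM in either group. The endothelial receptor gene Kdr had 0 reads in control and 1, 7 and 1 in Sox10ko. The part of these shifts in the results below was not tested. In bulk RNA, fewer cells that express a gene and less RNA per cell cannot be told apart.

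The stretch before the transcription start is shown for Hdac2, which fell, and for Smarca4, which had the smallest difference of the 10 genes, because both have the CpG-dense kind of start found in every partner gene window below. Each is 250 bases up to the start, 5′ to 3′, from RefSeq on GRCm38.p6, with every CpG dinucleotide in capitals. The Hdac2 window is chr10:36974294-36974543 on the plus strand and the Smarca4 window is chr9:21615919-21616168 on the plus strand.
Hdac2: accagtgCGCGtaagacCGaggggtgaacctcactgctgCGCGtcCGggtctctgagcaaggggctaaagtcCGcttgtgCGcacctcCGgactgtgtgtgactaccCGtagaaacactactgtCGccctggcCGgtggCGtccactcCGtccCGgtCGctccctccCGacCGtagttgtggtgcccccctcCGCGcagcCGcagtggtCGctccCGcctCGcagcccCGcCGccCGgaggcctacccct
Smarca4: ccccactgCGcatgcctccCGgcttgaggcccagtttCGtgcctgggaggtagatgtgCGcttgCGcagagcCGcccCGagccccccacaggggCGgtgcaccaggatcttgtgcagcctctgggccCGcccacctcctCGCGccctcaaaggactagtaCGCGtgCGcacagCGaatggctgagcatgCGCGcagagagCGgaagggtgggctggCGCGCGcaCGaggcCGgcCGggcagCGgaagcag
The Hdac2 window holds 27 CpG in 250 bases (68.8% G and C) and the Smarca4 window 25 (70.8%). For 7 of the 10 genes the RefSeq promoter table gave a window, 8 windows in all since Chd4 had 2 starts. All 8 had an observed over expected CpG ratio of at least 0.6, between 0.652 (Eed) and 0.990 (the downstream start of Chd4), as against 34% of the 32841 windows of the same length in the table. The letters ACAAAG or ACAATG, which match the Sox consensus on either strand, were in 0 of the 8 windows and in 25.2% of all windows. The Yy1 consensus AANATGGC, searched on both strands, was also in 0 of 8 and in 3.91% of all windows. No match says only that these letters are not in these windows.

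All 10 partner genes were expressed in both groups, and all 10 had a lower mean in Sox10ko than in control, but 8 of the 10 differences did not pass the test. Hdac1 and Hdac2 fell, by 1.39-fold and 1.43-fold, and none rose. Across the transcriptome 32.0% of 15427 tested genes were called, 14.7% lower and 17.3% higher, so that 2 called of 10 is no more than the share seen in genes at large. Each of the 10 averaged at least 20 CPM, and among the 7853 tested genes at that level 33.2% were called (19.9% lower and 13.3% higher). The median log2 fold change of the 10 genes was -0.21, against 0.02 over all tested genes and -0.07 over those of at least 20 CPM. A fold change under 0 was seen for 48.5% of all tested genes and for 58.0% of those of at least 20 CPM. Leaving out control replicate 2 turned 1 of the 10 differences, that of Med12, to 0.01.

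A p over the threshold does not show that a gene is steady, so the 95% interval of each fold change was set against a band of 1.5-fold in either direction. For 6 of the 10 genes (Chd3, Chd4, Smarca4, Med12, Yy1 and Eed) the whole interval lay in that band, so that a change of 1.5-fold or more lies outside it. The share of genes in the band was 30.2% of all tested genes and 51.0% of those of at least 20 CPM. The intervals of Chd8 and Chd7 were too wide, and those of Hdac1 and Hdac2 reached past the band on the lower side. The number was 4 without control replicate 1 or 3, and between 4 and 6 over all 6 single-library omissions.

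**Figure D1:**
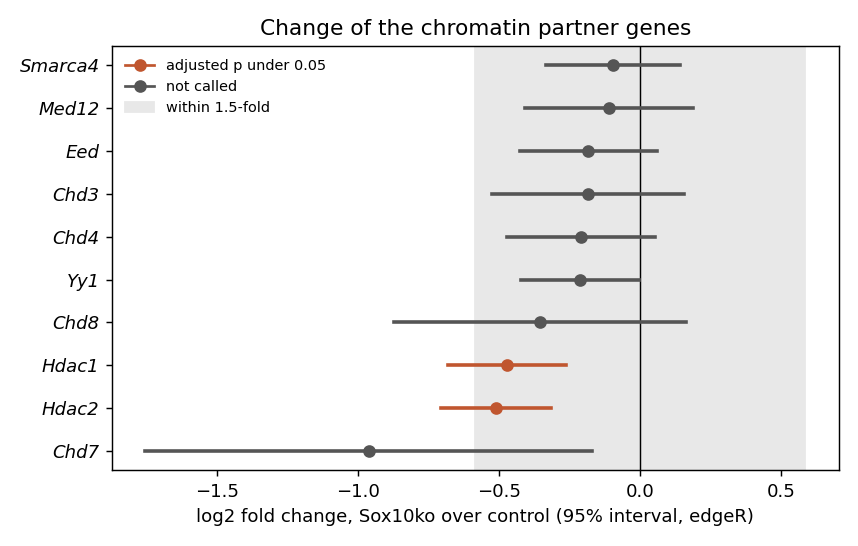
Log2 fold change (Sox10ko over control, x axis) of the 10 partner genes with its 95% interval from the edgeR fit; orange marks adjusted p under 0.05 and the grey band marks 1.5-fold in either direction. All 10 points lie left of 0, and 6 intervals lie in the band.

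To compare genes with each other, reads were divided by the exonic length of the gene and scaled to an equal sum of 1e+06 per library (TPM). In control, Chd4 was at 325 ± 34.9 TPM (SD, n = 3), Hdac2 at 271 ± 6.22 TPM, Smarca4 at 151 ± 11.1 TPM and Hdac1 at 114 ± 4.43 TPM. Yy1 (83.7 ± 0.341 TPM), Chd3 (81.2 ± 6.66 TPM), Eed (68.2 ± 4.59 TPM), Med12 (53.5 ± 9.11 TPM) and Chd8 (40.2 ± 2.83 TPM) followed, and Chd7 was the lowest at 8.50 ± 1.47 TPM. The order of the 10 means was identical in Sox10ko. Neighbours in that order had separate control ranges except Yy1 and Chd3, and in Sox10ko Yy1 with Chd3 and Chd3 with Eed overlapped. By its mean TPM over the 6 libraries Chd4 was at or above 96.4% of all tested genes, and Chd7 at or above 33.3%.

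**Figure D2:**
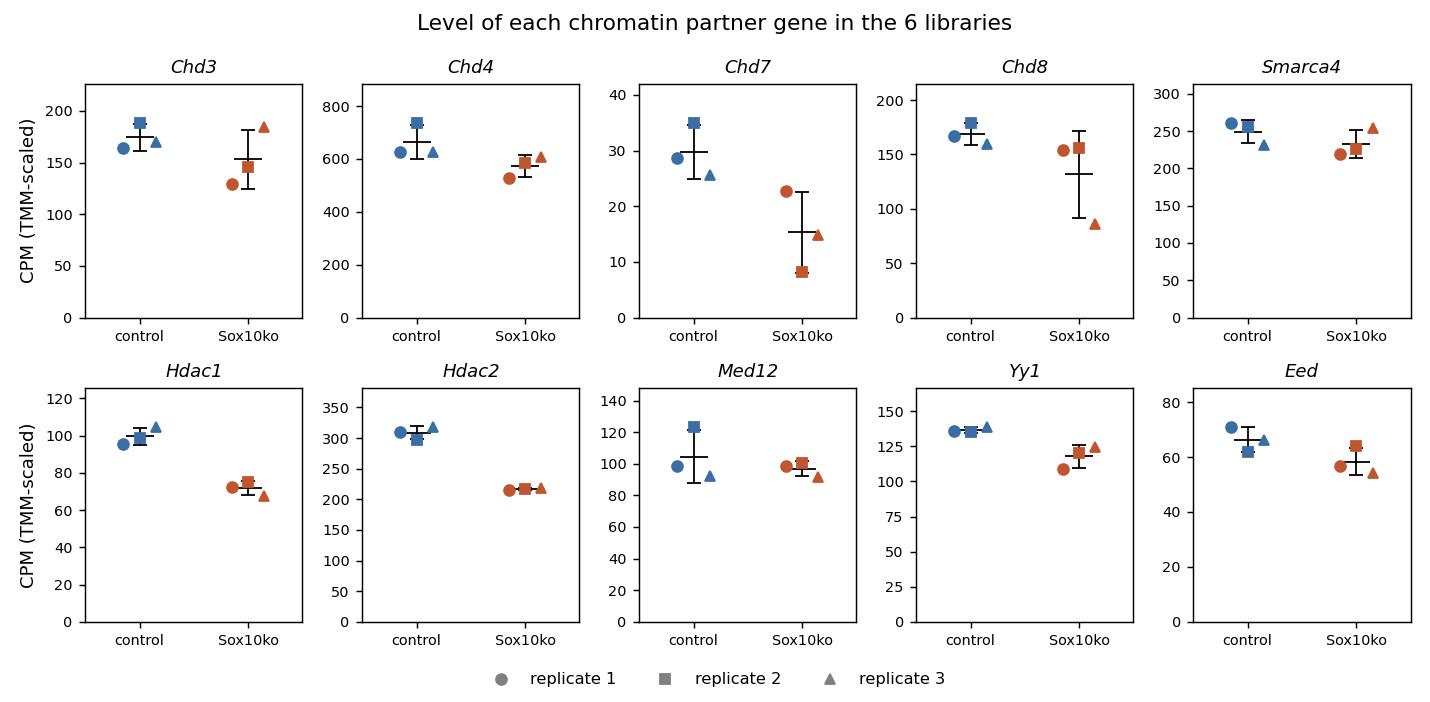
TMM-scaled CPM (y axis, from 0) of each partner gene in the 3 control (blue) and 3 Sox10ko (orange) libraries; bars are mean ± SD and the symbol gives the replicate. Hdac1 and Hdac2 separate cleanly by group, Chd7 is spread from 8.26 to 22.8 CPM within Sox10ko, and Chd8 is low in Sox10ko replicate 3 alone.

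Hdac1 and Hdac2 are class I histone deacetylases that remove acetyl groups from histone tails and serve as the catalytic core of the NuRD, Sin3 and CoREST corepressors. Hdac2 (ENSMUSG00000019777, plus strand of chromosome 10 from 36974544 to 37001889 in GRCm38) had 310, 297 and 318 CPM in control against 214, 217 and 218 CPM in Sox10ko. The 3 Sox10ko libraries lay within 4 CPM of each other and all below the lowest control (log2 fold change -0.51 ± 0.08, edgeR adjusted p = 0.00395). Hdac1 (ENSMUSG00000028800, minus strand of chromosome 4 from 129516104 to 129542713) had 95.4, 98.5 and 105 CPM in control against 72.3, 75.3 and 67.7 CPM in Sox10ko, again with no overlap (-0.47 ± 0.09, edgeR adjusted p = 0.00718). Both falls were called under each of the 14 alternatives. The highest adjusted p was 0.0382 for Hdac1 (without control replicate 3) and 0.0257 for Hdac2 (with the replicate number as a block).

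The other histone deacetylases did not follow one direction. Of 9 tested, 3 were higher and 1 was lower in Sox10ko (median log2 fold change 0.09). Hdac7, a class IIa deacetylase that shuttles between nucleus and cytoplasm, rose 2.11-fold to 211 ± 28.3 CPM, a log2 fold change of 1.08 ± 0.12 (edgeR adjusted p = 0.000846). Hdac9, of the same class, rose 2.38-fold from 28.8 ± 9.22 CPM, and Hdac11, at 1.61 ± 0.231 CPM in control, rose 2.48-fold. Hdac3, the class I enzyme of the NCoR corepressor, fell 1.38-fold from 154 ± 2.98 CPM. Without control replicate 1, 2 or 3 neither Hdac11 (edgeR adjusted p = 0.0664, 0.0528 and 0.0573) nor Hdac3 (0.0637, 0.0691 and 0.0862) was called.

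Sin3 and CoREST are the other main complexes built on Hdac1 and Hdac2. Of 17 tested genes of these complexes 3 were lower and 0 were higher (median log2 fold change -0.15), and 12 of the 17 intervals lay within 1.5-fold. Sin3b, a scaffold of the Sin3 complex, fell from 87.9 ± 10.2 to 59.9 ± 3.12 CPM, and Sap30, another subunit, fell 1.68-fold. Kdm1a, the histone demethylase of CoREST, fell 1.30-fold. Only 1 fall was called without control replicate 1 or 3 or Sox10ko replicate 3. The call of Sap30 was lost when any library except Sox10ko replicate 1 was left out (edgeR adjusted p = 0.0574 to 0.108), and that of Kdm1a was lost without control replicate 1 or 3 or Sox10ko replicate 3 (edgeR adjusted p = 0.0542 to 0.0706).

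Chd4 and Chd3 are the alternative ATPases of NuRD, a complex that joins nucleosome sliding with deacetylation. Chd4 (ENSMUSG00000063870, plus strand of chromosome 6 from 125095981 to 125130591) had 625, 737 and 627 CPM in control against 527, 586 and 608 CPM in Sox10ko. The groups did not overlap, but the gap was small next to the spread within them (log2 fold change -0.21 ± 0.11, 95% interval -0.47 to 0.05, edgeR adjusted p = 0.196). With each chromosome's median removed per library the difference was -0.30 and was called (edgeR adjusted p = 0.0272). The 503 other genes of chromosome 6 with at least 5 CPM stood at a median of -0.21, 0.11 and 0.13 log2 units against the control mean in Sox10ko replicates 1, 2 and 3. Chd3 (ENSMUSG00000018474, minus strand of chromosome 11 from 69343273 to 69369406) had 165, 189 and 170 CPM in control against 130, 145 and 185 CPM in Sox10ko. Sox10ko replicate 3 lay among the controls (log2 fold change -0.19 ± 0.14, 95% interval -0.52 to 0.15, edgeR adjusted p = 0.369), and without it the log2 fold change was -0.35.

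Non-overlapping groups were seen for 6 of the 10 partner genes (Chd4, Chd7, Chd8, Hdac1, Hdac2 and Yy1), each with Sox10ko below control. Over all tested genes that held for 23.8% in this direction and for 49.3% in either, and for 51.8% in either direction among genes of at least 20 CPM. An unadjusted p under 0.05 was found for 4 of the 10 (Hdac1, Hdac2, Chd7 and Yy1), beside 43.3% of all tested genes.

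Of the 15 NuRD genes on the list, the 4 partner genes included, 3 were lower and 1 was higher, and 9 intervals lay within 1.5-fold (median log2 fold change -0.19). Besides Hdac1 and Hdac2, the small subunit gene Cdk2ap1 fell from 51.1 ± 6.36 to 34.7 ± 5.59 CPM. Mta3, one of 3 alternative MTA scaffolds, rose from 23.7 ± 0.737 to 32.5 ± 4.75 CPM. Neither call was firm: that of Cdk2ap1 was lost without control replicate 1 or 3 or Sox10ko replicate 1 or 3 (edgeR adjusted p = 0.0641 to 0.0953), and that of Mta3 without any single library but Sox10ko replicate 1 (edgeR adjusted p = 0.0778 to 0.135). Chd5, the neuronal member of the family, was at 5.82 ± 1.52 CPM in control and 6.81 ± 1.34 CPM in Sox10ko (edgeR adjusted p = 0.523).

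Chd7 and Chd8 form another branch of the CHD family and are known as remodellers at enhancers and promoters of glial genes. Chd7 (ENSMUSG00000041235, plus strand of chromosome 4 from 8690406 to 8867659) had 28.6, 35.0 and 25.6 CPM in control against 22.8, 8.26 and 14.9 CPM in Sox10ko. All 3 Sox10ko libraries were below all controls, but they kept very unequal shares of the control mean, 76.5%, 27.8% and 49.9%. The log2 fold change of -0.96 ± 0.34 was the largest in size among the partner genes (95% interval -1.75 to -0.17) and was not called (edgeR adjusted p = 0.0661). It passed the threshold without Sox10ko replicate 1 (log2 fold change -1.37, edgeR adjusted p = 0.0133), with no low-count filter (edgeR adjusted p = 0.0158), with DESeq2 (adjusted p = 0.0146) and with limma-voom (adjusted p = 0.0385). Without Sox10ko replicate 2 the log2 fold change was -0.67.

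Chd8 (ENSMUSG00000053754, minus strand of chromosome 14 from 52198151 to 52257780) had 167, 179 and 160 CPM in control against 154, 156 and 85.7 CPM in Sox10ko. Replicates 1 and 2 of Sox10ko kept 91.4% and 92.2% of the control mean and replicate 3 kept 50.8% (log2 fold change -0.36 ± 0.22, 95% interval -0.87 to 0.16, edgeR adjusted p = 0.261). Without that library the log2 fold change was -0.13. Other genes of chromosome 14 were also lower in that library: the 338 of them with at least 5 CPM had a median of -0.19, -0.21 and -0.45 log2 units against the control mean in Sox10ko replicates 1, 2 and 3, and the 73 within 5 Mb of Chd8 had -0.20, -0.22 and -0.37. Chd8 itself was at -0.13, -0.12 and -0.98 on this scale. With chromosome medians removed its log2 fold change was -0.13 (edgeR adjusted p = 0.542). The part of the chromosome in the level of Chd8 was not tested further.

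**Figure D3:**
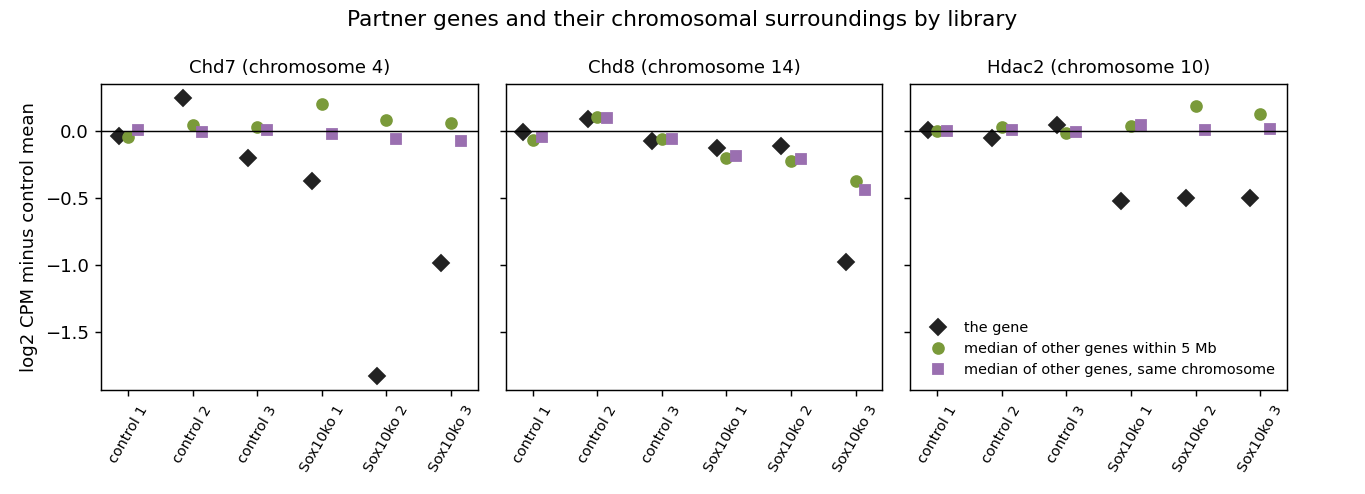
Log2 CPM minus the control mean (y axis) in each library for Chd7, Chd8 and Hdac2 (black), with the median of the other tested genes of at least 5 CPM within 5 Mb (green) and on the same chromosome (purple). Chd8 and its chromosome are both lowest in Sox10ko replicate 3, and the medians within 5 Mb of Chd7 and Hdac2 lie between 0.03 and 0.20 in Sox10ko, with both genes below 0.

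The 22 other genes within 5 Mb of Chd7 had medians of 0.20, 0.08 and 0.05 in Sox10ko replicates 1, 2 and 3, where Chd7 was at -0.37, -1.83 and -0.99. The 110 within 5 Mb of Hdac1 had -0.06, -0.15 and -0.08, where Hdac1 was at -0.46, -0.40 and -0.555. Such medians were also negative in each Sox10ko library for Yy1 and Med12, positive for Smarca4 and Eed, and mixed for Chd3 and Chd4. The part of these surroundings in the levels of the genes was not tested. Among the remaining CHD remodellers 2 of 6 tested were lower and none was higher, with a median of -0.12 on the log2 scale. Chd9, the nearest relative of Chd7 on this list, fell 1.34-fold from 54.0 ± 4.06 CPM, and Chd6 fell 1.32-fold from 117 ± 10.6 CPM. Neither was called without control replicate 1 or 3 or Sox10ko replicate 2 (edgeR adjusted p = 0.05997 to 0.0779 for Chd9 and 0.0692 to 0.107 for Chd6), and Chd6 was also lost without control replicate 2 (0.117) or Sox10ko replicate 3 (0.0972). Chd1 was at 159 ± 17.3 and 124 ± 11.7 CPM (edgeR adjusted p = 0.0591, and 0.0497 without Sox10ko replicate 3).

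Chd8 also binds the core of the COMPASS complexes, which methylate H3K4 at promoters and enhancers. Of 8 tested genes of that group 1 was lower and 0 were higher, and 5 intervals lay within 1.5-fold (median log2 fold change -0.21). The one called was Kmt2c, an enhancer H3K4 methyltransferase, which fell from 159 ± 18.3 to 100.2 ± 4.93 CPM, a log2 fold change of -0.67 ± 0.11 (edgeR adjusted p = 0.00405). The number lower was 2 without Sox10ko replicate 1 and 3 with chromosome medians removed.

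Smarca4 (ENSMUSG00000032187, plus strand of chromosome 9 from 21616169 to 21704230) encodes Brg1, one of the pair of ATPases that drive BAF complexes. Its values were 261, 255 and 231 CPM in control against 219, 226 and 254 CPM in Sox10ko, with the groups overlapping (log2 fold change -0.10 ± 0.10, 95% interval -0.34 to 0.14, edgeR adjusted p = 0.504). The other ATPase gene, Smarca2 (Brm), rose from 48.1, 63.3 and 49.95 CPM in control to 147, 87.5 and 190 CPM in Sox10ko (log2 fold change 1.40 ± 0.27, edgeR adjusted p = 0.00804). Every Sox10ko library was above every control, and the rise was called under all 14 alternatives.

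Among the 27 tested BAF and PBAF genes 7 were lower, 2 were higher and 18 were not called (median log2 fold change -0.18). Dpf3, a histone-reading subunit of BAF in muscle and neurons, rose from 0.434, 0.359 and 0.488 CPM to 5.84, 6.48 and 1.40 CPM, a log2 fold change of 3.41 ± 0.59 (edgeR adjusted p = 0.00507). Its control libraries held 16, 14 and 20 reads. Actl6a, the actin-related subunit of BAF in dividing cells, fell from 79.0 ± 1.14 to 51.5 ± 5.23 CPM (edgeR adjusted p = 0.00392). Arid1a, the DNA-binding subunit that defines canonical BAF, fell from 197 ± 18.8 to 133 ± 7.38 CPM (edgeR adjusted p = 0.00653), and Smarcd1 fell from 117 ± 18.3 to 61.3 ± 11.7 CPM (edgeR adjusted p = 0.00685). These 3 falls were called under all 14 alternatives. The number of BAF and PBAF genes lower was 4 without control replicate 3 and 5 to 8 without any other single library.

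Med12 (ENSMUSG00000079487, plus strand of chromosome X from 101274030 to 101297465) is a subunit of the kinase module, which docks on Mediator and regulates its contact with RNA polymerase II. Its values were 98.3, 123.4 and 92.0 CPM in control against 98.5, 101 and 91.6 CPM in Sox10ko. Control replicate 2 alone stood out, and the other 5 libraries lay between 91.6 and 101 CPM (log2 fold change -0.11 ± 0.13, 95% interval -0.41 to 0.19, edgeR adjusted p = 0.549). The other module genes, apart from Med12l, also had lower means in Sox10ko, and 2 of them were called. Cdk19, one of its 2 alternative kinases, fell from 83.6 ± 2.36 to 47.7 ± 3.63 CPM, a log2 fold change of -0.81 ± 0.09 (edgeR adjusted p = 0.000954), and Med13, which joins the module to the core, fell from 506 ± 20.6 to 358 ± 32.6 CPM (edgeR adjusted p = 0.0101). Cdk8, the other kinase, had a log2 fold change of -0.24 (edgeR adjusted p = 0.188), Ccnc, their cyclin, -0.27 (0.0651) and Med13l, the paralog of Med13, -0.29 (0.0790), and none of these was called. These 3 were named after their values were seen, and the differences between module genes were not tested.

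Med12l, the paralog of Med12, had 2, 10 and 9 reads in control and 51, 37 and 21 in Sox10ko. It entered the test through the Sox10ko libraries, where it is high, so that its call is not evidence of a rise. Of 32 tested Mediator genes 6 were lower and Med12l was the 1 called higher, and 21 intervals lay within 1.5-fold (median log2 fold change -0.12). Med8 and Med14, of the head and the central scaffold, fell 1.52-fold and 1.44-fold, both under all 14 alternatives.

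Yy1 (ENSMUSG00000021264, plus strand of chromosome 12 from 108792973 to 108820148) encodes a zinc finger protein that can activate or repress and that recruits the INO80 remodeller. Its values were 136, 135 and 139 CPM in control against 109, 120 and 125 CPM in Sox10ko. The groups did not overlap, and the 95% interval of the log2 fold change, -0.42 to -0.004, just missed 0, yet the difference was not called after adjustment over all genes (log2 fold change -0.21 ± 0.09, edgeR adjusted p = 0.1101). It was also not called under any of the 14 alternatives (adjusted p = 0.0640 to 0.217). Its paralogs Yy2 and Zfp42 had 0 reads in all 6 libraries, and a count of 0 allows up to 3 reads in a library. Med10, a gene of the Mediator list, also had 0 reads in all 6. Whether such a 0 reflects absent expression or the way reads were counted was not tested. Of 15 tested genes of the Yy1 and INO80 list 3 were lower and 0 were higher (median log2 fold change -0.21). They were Ruvbl2, a helicase-like ATPase of INO80, with a fall of 1.37-fold, the core ATPase gene Ino80, with a log2 fold change of -0.32, and Ino80d, with 1.39-fold. None of the 3 was called without control replicate 3 (edgeR adjusted p = 0.0554 for Ruvbl2, 0.0782 for Ino80 and 0.107 for Ino80d), and the number was 1 without control replicate 1 or Sox10ko replicate 3.

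Eed (ENSMUSG00000030619, minus strand of chromosome 7 from 89954654 to 89980983) encodes the subunit with which Polycomb repressive complex 2 (PRC2) reads methylated H3K27. Its values were 71.0, 61.7 and 66.3 CPM in control against 56.7, 64.1 and 54.4 CPM in Sox10ko. Sox10ko replicate 2 fell within the control range (log2 fold change -0.18 ± 0.10, 95% interval -0.43 to 0.06, edgeR adjusted p = 0.220). Ezh2, the main H3K27 methyltransferase, fell from 177, 167 and 162 CPM to 66.7, 111 and 82.8 CPM, a log2 fold change of -0.96 ± 0.18 (edgeR adjusted p = 0.00685). Ezh1, the alternative enzyme, typical of resting cells, rose from 14.9, 17.7 and 17.0 CPM to 29.6, 25.0 and 26.6 CPM, a log2 fold change of 0.71 ± 0.12 (edgeR adjusted p = 0.00522). Neither gene's groups overlapped, and both calls held under all 14 alternatives. Suz12, the third core subunit, fell 1.23-fold from 78.7 ± 0.585 CPM (edgeR adjusted p = 0.0352), and was not called when any single library was left out (edgeR adjusted p = 0.0517 to 0.102).

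Of 12 tested genes of the PRC2 and H3K27 demethylase list 5 were lower and 2 were higher, and 6 intervals lay within 1.5-fold (median log2 fold change -0.24). Mtf2, an accessory subunit that brings PRC2 to CpG islands, fell 1.54-fold, and was lost without control replicate 1, 2 or 3 (edgeR adjusted p = 0.0788, 0.0670 and 0.0872). Phf1, a related accessory subunit, rose 1.43-fold, a call that needed control replicate 3 (edgeR adjusted p = 0.0621 without it). Jarid2 and the demethylase gene Kdm6a, named after their values were seen, fell 1.47-fold and 1.28-fold. The 5 lower genes were 1 without control replicate 1, 2 or 3 and 3 without Sox10ko replicate 1, 2 or 3.

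**Figure D4:**
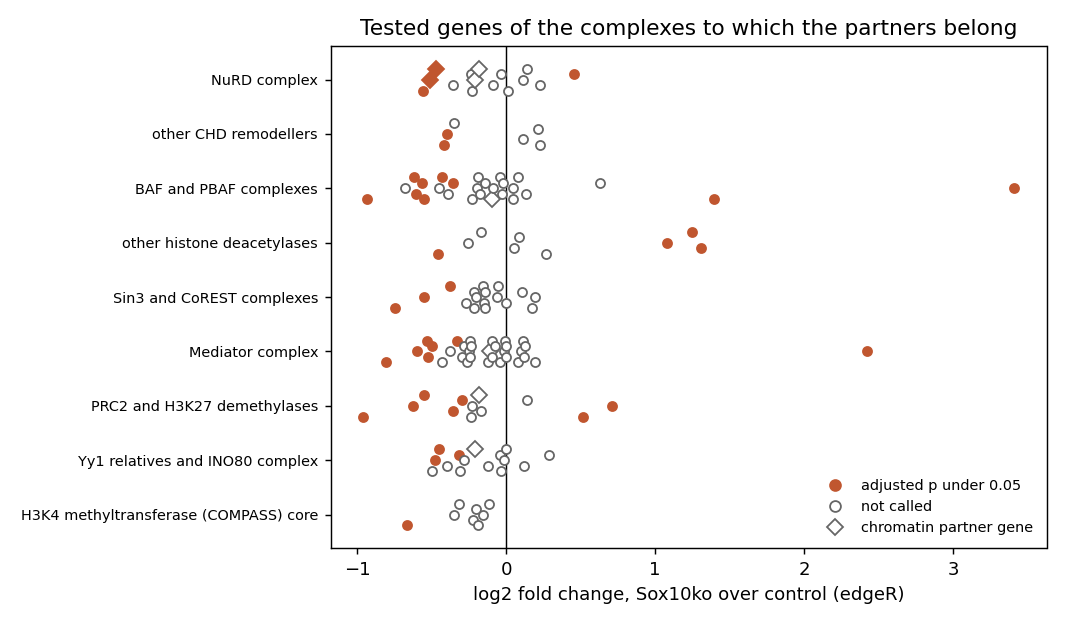
Log2 fold change (x axis) of each tested gene in 9 lists of complexes and families (rows, with small vertical offsets to separate points); filled orange marks adjusted p under 0.05 and diamonds mark the partner genes. Most points lie between -1 and 0.5, and the points past 1 are Dpf3, Med12l, Smarca2, Hdac11, Hdac9 and Hdac7.

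Over the 9 lists together, 130 tested genes that are not among the 10 had a median log2 fold change of -0.17. Of these 29 (22.3%) were lower, 9 (6.92%, Med12l among them) were higher and 92 were not called. Over all tested genes 14.7% were lower and 17.3% higher, and among those of at least 20 CPM 19.9% were lower and 13.3% higher. The 130 genes were not limited to that level.

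The balance between paralogs was described as the share of a gene in the summed TPM of its pair. Hdac1 made up 28.5%, 30.1% and 29.9% of Hdac1 and Hdac2 in control and 30.4%, 31.0% and 28.7% in Sox10ko, so that the pair, whose members both fell, kept overlapping shares. Chd3 made up 19.99% ± 0.438 of Chd3 and Chd4 in control and 20.1% ± 1.96 in Sox10ko (SD, n = 3). Chd7 made up 17.0%, 18.97% and 16.1% of Chd7 and Chd8 in control and 15.0%, 5.98% and 17.2% in Sox10ko, low in Sox10ko replicate 2. By contrast the share of Smarca4 in the BAF ATPases went from 92.3%, 89.9% and 91.1% to 76.6%, 85.0% and 74.7%, and that of Ezh2 in Ezh2 and Ezh1 from 93.0%, 91.3% and 91.4% to 71.5%, 83.1% and 77.6%. In both of these pairs no Sox10ko library reached the lowest control. An exact two-sided permutation test of 3 against 3 libraries cannot give a p under 0.1, which is what it gave for these 2 pairs (0.25 adjusted over the 5 pairs by Benjamini-Hochberg). It gave 0.3 for Chd7, 0.5 for Hdac1 and 1 for Chd3. The size of the Smarca4 shift depends on the gene length used: it was 12.3 percentage points lower in Sox10ko with the exonic length, a change of -12.3, and -19.9 with the longest transcript (-19.2 with read counts alone).

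**Figure D5:**
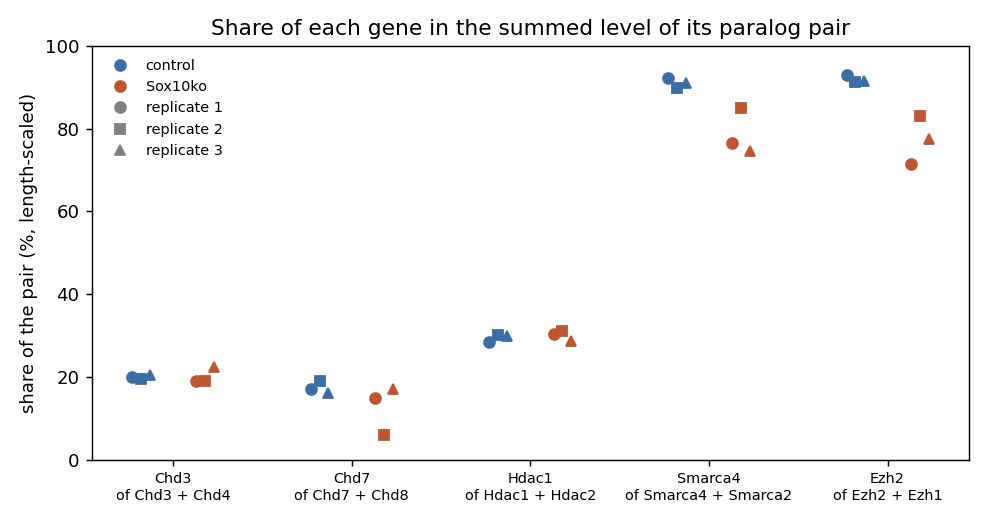
Share of the first gene of each pair in the summed length-scaled level (y axis, percent) by library, control in blue and Sox10ko in orange, with the symbol giving the replicate. Smarca4 and Ezh2 hold 89.9% or more of their pairs in control and at most 85.0% in Sox10ko; the shares of Hdac1 and Chd3 overlap.

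Some genes of the cell cycle were also lower in Sox10ko, and whether they followed the falls above from library to library was not tested. Of 15 proliferation markers, a list added after the data were seen, 9 were lower and 0 higher in Sox10ko (median log2 fold change -0.53), or 6 lower without control replicate 1 or 3. Among all tested genes of at least 20 CPM 19.9% were lower and 13.3% higher, with a median log2 fold change of -0.07. Mcm7, which belongs to the helicase that opens DNA for copying, fell 1.79-fold, and Pcna, the sliding clamp of replication, fell from 295 ± 29.5 to 176 ± 25.5 CPM. The part of proliferation in the levels of Hdac1, Hdac2, Ezh2, Actl6a and the other genes was not tested.

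Of the transcription factors that work with these complexes in Schwann cells, Nab2, a corepressor that binds Chd4, rose from 28.0 ± 3.91 to 63.7 ± 12.0 CPM, a log2 fold change of 1.19 ± 0.17 (edgeR adjusted p = 0.00212). Nab1, its paralog, was at 105 ± 12.3 and 126 ± 11.3 CPM (edgeR adjusted p = 0.137). Egr2, to which both Nab proteins bind, was at 3.40 ± 0.752 and 2.26 ± 0.855 CPM (edgeR adjusted p = 0.239).

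Counts of the partner genes could in principle include reads of genes that overlap them, since no label states whether the counting used strand. In the annotation, overlapping genes with a count of their own held at most 1.45% of the member's reads (for Eed, an opposite-strand transcript), 0.648% for Med12 and less for the others that have one. Such a count need not include reads from the shared stretch, since how these were assigned is unstated. These shares therefore set no limit on the reads that a partner gene gained or lost by overlap.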

How the data were processed

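Read counts per Ensembl gene ID, 1 table per library, were used as deposited, being whole numbers whose totals differ between libraries. Per the labels' protocols, libraries were made from total RNA with a stranded mRNA kit. STAR 2.6.0c, HTSeq and DESeq2, with mm10 (GRCm38), are named by the submitters' processing notes. What each did, the annotation release and the strand option of the counting are unstated.

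Symbols matched 54042 of 54109 IDs, and GENCODE M21 (GRCm38) gave coordinates and exon lengths. Promoter windows are from RefSeq (GRCm38.p6). TPM were computed here from the deposited counts and exonic lengths, and CPM with TMM scaling. Genes passing filterByExpr (15427) were tested with the quasi-likelihood F test of edgeR 4.0.16 (R 4.3.3), two-sided, with genotype alone as term and Benjamini-Hochberg adjustment over all tested genes. The SE is the log2 fold change over the root of F, and 95% intervals use the fit's t quantile. The fit was tested on simulated data. Proliferation markers were listed after the data were seen. The partner genes, complex lists, alternatives and the rule for named genes (in each list up to 3 called genes per direction by adjusted p, plus the nearest relatives of the partner genes) were chosen with earlier results of these data known. The alternatives were DESeq2 size factors, library size alone, no filter on counts, a mean CPM of 5 as the filter, limma-voom (limma 3.58.1), the Wald test of DESeq2 1.42.0, a replicate block, removal of chromosome medians, and leaving out each of the 6 libraries.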

Additional observations from a re-analysis of the deposited data

How the results depend on the processing

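Every one of the 10 partner genes kept a negative log2 fold change under each of the 14 alternatives, except Med12, which ranged from -0.217 to 0.01 with 1 library left out (0.01 without control replicate 2). The number of partner genes called was 2 or 3 throughout, and 4 to 7 had an interval within 1.5-fold. All genes called numbered 2869 to 4681 (the lowest without control replicate 3) with 1 library left out, against 4939. The shares of Chd3 in its pair changed by 0.139 percentage points, and by -0.991 to 0.736 with 1 library left out (-0.0816 without control replicate 2 and -0.991 without Sox10ko replicate 3). The Smarca4 share changed by -12.3 points, by -19.9 with the longest transcript and by -19.2 without length scaling. Replicate numbers are shared by the groups but did not pair the libraries: over 10236 genes of at least 5 CPM, deviations of same-numbered libraries correlated at -0.214, -0.1 and 0.074, and no control library except replicate 3 correlated best with its own number. With the replicate block 3537 genes were called, and 2 partner genes, as without it. Of the genes named from the lists, the block ended the calls of Hdac3, Cdk2ap1, Mta3, Med12l, Chd6, Suz12, Kdm1a, Sap30, Ruvbl2, Ino80 and Ino80d. Lower calls then numbered 2 of NuRD, 1 of CHD, 0 of other deacetylase, 1 of Sin3 and CoREST, 5 of Mediator, 2 of PRC2 and 0 of INO80 genes. Scaling by library size alone shifted fold changes by a median of 0.06 on the log2 scale.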
